A study of Mus musculus with 20 samples.

Results

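Genes of metal handling were followed in the mouse retina, the light-sensing tissue at the back of the eye. They were 10 of the 35006 genes in the count tables, taken by name as a fixed list: the metallothioneins Mt1, Mt2 and Mt3, the ferritin subunits Fth1 and Ftl1, the iron uptake genes Tfrc and Trf, and the iron release genes Cp, Slc40a1 and Heph. No measured value entered the rule for the list, but earlier results of these data were known when it was chosen. All 10 passed the filter on low counts in each comparison.

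Messenger RNA was sequenced from C57BL/6J mice, an inbred wild-type strain, with 1 library from 1 retina of each of 20 mice. Treated mice drank NACET, which is N-acetyl-L-cysteine ethyl ester and carries cysteine into cells, in their water for 5 days, and the daily dose was 50 mg/kg. The groups were 4 young controls of 119 days (2 male, 2 female), 6 young NACET mice (4 males of 129 days and 2 females of 119 days by title), 4 old controls of 668 days and 6 old NACET mice of 668, 581 or 574 days, with 2 at each age, and every old mouse was labelled male. In young NACET replicate 6 the title and the batch tag gave different ages. The study's methods describe male mice only, and 1 library labelled male, old control replicate 4, held 59555 counts of Xist, an RNA made from the inactive X chromosome of females, and 1 count over Y-linked genes. Library depth was 17.7 to 31.1 M gene counts (M, 1000000 counts).

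Metallothioneins are small cysteine-rich proteins that bind zinc and copper, and the zinc sensor Mtf1 switches on the genes of Mt1 and Mt2. Iron bound to transferrin (Trf) enters cells through the transferrin receptor (Tfrc) and is stored inside ferritin shells of heavy (Fth1) and light (Ftl1) chains. It leaves through ferroportin (Slc40a1), and the ferroxidases ceruloplasmin (Cp) and hephaestin (Heph) oxidise it as it comes out. In the retina this traffic matters because photoreceptors hold much iron and are sensitive to the radicals it can form. Iron regulatory proteins bind a hairpin, the iron-responsive element, in several of these messages: in a 5′ untranslated region (UTR) it holds back translation when iron is scarce, and in a 3′ UTR it protects the message from decay.

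Hairpins of this form were sought in the mm9 transcripts of the 10 genes, because they mark which messages iron can control by stability and which by translation. The search asked for a loop CAGTGN, 5 paired bases on either side of it (G with T allowed) and a C just before the stem. The capitals mark the loop:
Fth1, 5′ UTR, chr19:10057222-10057251, plus strand: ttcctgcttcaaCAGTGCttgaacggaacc
Ftl1, 5′ UTR, chr7:52715148-52715177, minus strand: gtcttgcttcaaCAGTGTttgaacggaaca
Slc40a1, 5′ UTR, chr1:45982309-45982338, minus strand: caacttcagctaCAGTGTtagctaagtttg
Tfrc, 3′ UTR, chr16:32631305-32631334, plus strand: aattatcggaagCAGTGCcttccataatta
Tfrc, 3′ UTR, chr16:32631684-32631713, plus strand: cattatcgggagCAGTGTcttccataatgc
Tfrc, 3′ UTR, chr16:32631749-32631778, plus strand: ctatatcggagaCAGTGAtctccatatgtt
Tfrc, 3′ UTR, chr16:32631796-32631825, plus strand: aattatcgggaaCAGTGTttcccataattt
The form was found in the 5′ UTR of 17 of 22611 genes (0.0752%) and in the 3′ UTR of 108 (0.478%). Fth1, Ftl1 and Slc40a1 each held 1 in the 5′ UTR, and Tfrc held 4 in the 3′ UTR. A match describes the sequence only, and binding was not measured. Of these 4 genes, Tfrc is the one in which the hairpins are known to act on message stability.

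Levels between genes were compared as CPM per kilobase of annotated exon (CPM, counts scaled to 1000000 gene counts per library). The length was that of all annotated exons of a gene merged. For Cp it was 9566 bases against 4564 in the transcript used for sequence, for Heph 7662 against 4743, and for Fth1 866 in both. The order of genes other than Fth1 therefore depends on this choice of length. On this per-length scale the mean over 20 libraries was 461 for Fth1, 42.3 for Mt1, 40.1 for Ftl1, 38.1 for Tfrc, 28.2 for Mt2, 25.6 for Mt3 and 17.3 for Cp. Trf (2.74), Heph (1.14) and Slc40a1 (1.06) lay lower. The ferritin heavy chain was thus the most abundant of the 10 messages per length in every library, with a range of 375 to 562 that no other member reached. Ranges of Mt1 (31.9 to 61.2), Ftl1 (32.7 to 78.0) and Tfrc (30.3 to 45.6) overlapped on the same scale, so the order of these neighbours does not exceed the spread between libraries, and the same holds for Heph (0.896 to 1.41) and Slc40a1 (0.781 to 1.46).

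**Figure D1:**
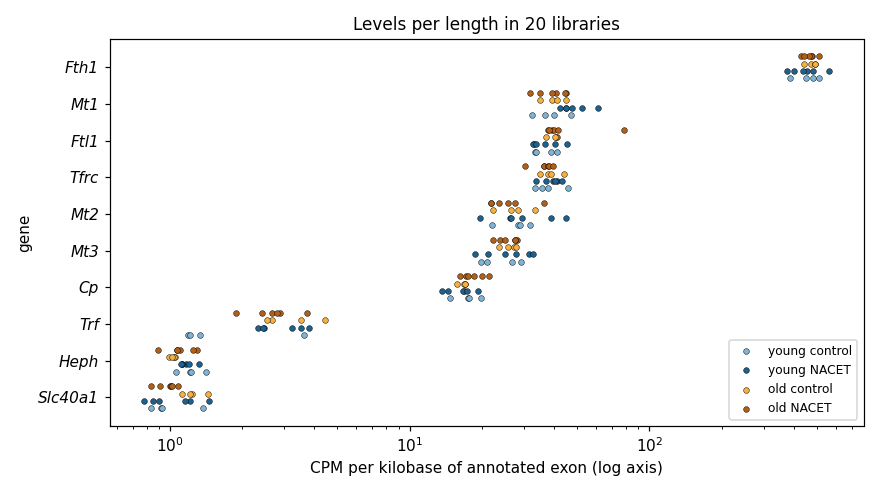
Level of each of the 10 genes in CPM per kilobase of annotated exon (log axis), 1 point per library, coloured by group. Fth1 lies above every other gene in all 20 libraries, and Heph and Slc40a1 overlap at about 1.

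Some of these counts share sequence with other loci. Of the 50-base windows along the Ftl1 transcript, 74.9% occurred elsewhere in the mm9 genome, at 12 other places. Reads with several alignments were set aside in counting, so the Ftl1 count is uncertain and may be too low. The share of windows found elsewhere was 19.7% for Trf, 8.69% for Fth1, 0.592% for Mt2 and 0 for the other 6. Trf also shares 21.0% of its annotated exon bases with Srprb, a subunit of the signal recognition particle receptor on the same strand. Srprb ranged only from 68.7 to 82.9 CPM over the 20 libraries, while Trf ranged from 5.05 to 18.7 CPM. Ftl1 shares 8.13% of its exon bases with AC151602.1, also on the same strand. Counting ignored strand, and Cp and Heph overlap an opposite-strand gene over 1.13% and 0.378% of their exon bases.

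The tissue label was checked against marker lists, and each list was summed as CPM. The 8 rod photoreceptor genes summed to between 62800 and 95100 CPM in every library. Genes of tissues next to the retina moved between libraries. The 13 pigment epithelium genes, all with counts in every library, summed to 77.0, 81.2 and 99.5 CPM in 3 young controls and 374 CPM in replicate 4, to 133 to 246 CPM in young NACET, 136 to 299 CPM in old control and 74.1 to 167 CPM in old NACET libraries. The 9 lens genes summed to 8180 CPM in old NACET replicate 1 and to 0.721 to 17.1 CPM in the other 19. The 11 corneal and conjunctival genes summed to 248, 566 and 293 CPM in young NACET replicates 3, 4 and 5 and 617 CPM in old control replicate 2, against 5.41 to 73.0 CPM elsewhere. In bulk retina, fewer cells of a type and less RNA per cell cannot be told apart.

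Aging was compared in untreated mice and, separately, in mice on NACET, and NACET was compared with control at each age. The interaction asked whether its effect differed between ages. These comparisons share samples, so their values are given side by side and not counted as independent. Among old against young controls, none of the 10 genes passed an adjusted p of 0.05 in edgeR's quasi-likelihood test, where 1.42% of 16484 genes passed (1.09% higher, 0.328% lower in old mice). DESeq2 also called 0 of the 10. An unadjusted p under 0.05 was found for 2 of the 10, and for 16.3% of all genes. For NACET in old mice none of the 10 was called against 0.543% of 16562 genes (0.260% higher, 0.284% lower), by edgeR or by DESeq2, with 1 at an unadjusted p under 0.05 beside 14.4% of all genes. In young mice and in the interaction neither tool called any of the 10, and the percent edgeR called over all genes was 0 in both, with 2 of the 10 at an unadjusted p under 0.05 in each beside 4.36% and 6.19% of all genes. Between old and young mice on NACET, 1 of the 10 was called, Mt1, which was lower, against 4.88% of 16276 genes called in either direction (2.24% higher, 2.64% lower), and 2 of the 10 had an unadjusted p under 0.05 beside 21.1% of all genes. The median log2 change of the 10 genes was 0 in aging controls, -0.04 and 0.04 under NACET in old and young mice and -0.14 for aging under NACET, beside medians of -0.01, 0, 0 and 0 over all genes tested.

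**Figure D2:**
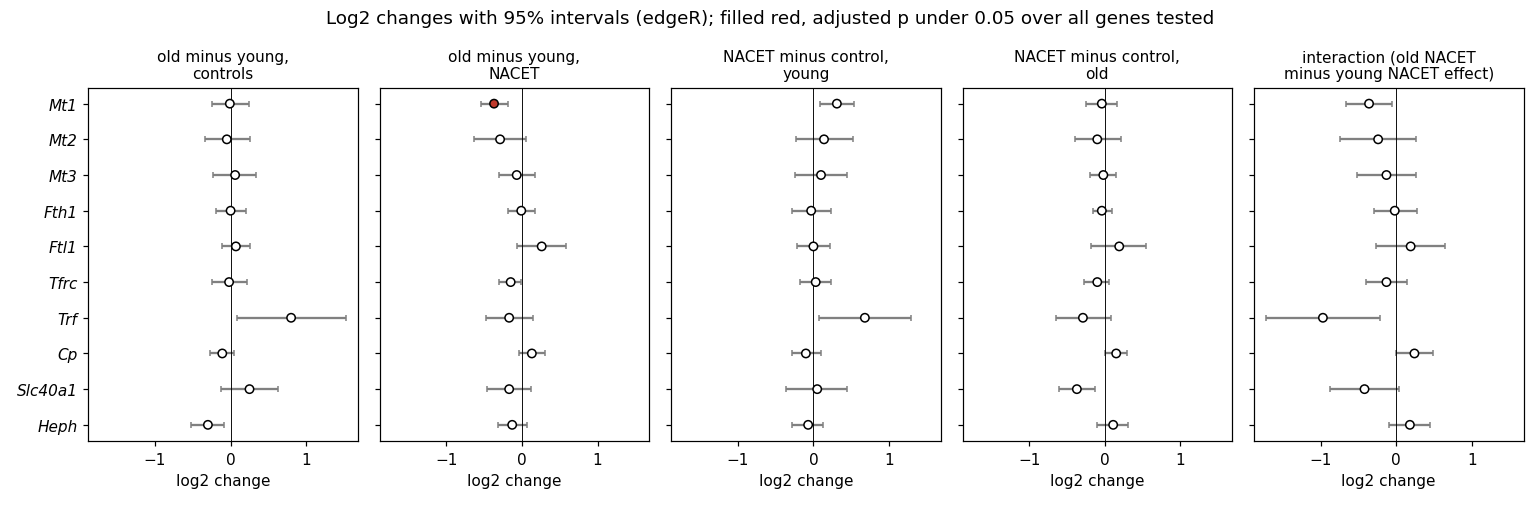
Log2 change of each gene (points) with its 95% interval from edgeR (bars) in the 5 comparisons; the filled red point marks an adjusted p under 0.05 over all genes tested. Mt1 in old against young mice on NACET is the single filled point, and the Trf interval for aging in controls runs from 0.08 to 1.52.

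Mt1, a broadly expressed metallothionein, is encoded at 8:96702989-96704225 on the plus strand of mm9. It measured 24.4, 27.6, 30.2 and 35.4 CPM in the 4 young controls and 26.3, 33.9, 29.4 and 31.0 CPM in the 4 old controls. In young NACET mice it ran from 32.0 to 46.1 CPM with a median of 34.9, and in old NACET mice from 24.0 to 33.7 CPM with a median of 30.1. The mean was highest in young NACET mice, whose libraries overlapped those of each other group, with means of 29.4 ± 4.66 (SD, n = 4) in young controls, 36.8 ± 5.18 (n = 6) in young NACET, 30.2 ± 3.16 (n = 4) in old control and 29.6 ± 3.87 CPM (n = 6) in old NACET mice. Old mice on NACET were below young mice on NACET, by -0.37 on the log2 scale (95% interval -0.54 to -0.19, SE 0.08, adjusted p = 0.0187 in edgeR), and 4 of the 6 old NACET libraries lay below every young NACET library.

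In young mice the Mt1 difference of NACET from control was 0.31 (SE 0.10), with 3 of 6 treated libraries above all controls. Its unadjusted p of 0.00926 became an adjusted p of 1 in edgeR. In old mice it was -0.04 (SE 0.09, adjusted p = 0.882), and the interaction was -0.36 (SE 0.15, edgeR adjusted p = 0.702), so a difference between the ages was not shown. Aging in controls gave -0.01 with an interval of -0.25 to 0.24. The 3 young NACET libraries with the most corneal RNA held Mt1 at 35.9, 46.1 and 39.4 CPM, and the other 3 at 33.8, 32.0 and 33.9 CPM. Without these 3 libraries, whose corneal genes passed 200 CPM, old against young on NACET was -0.26 (edgeR adjusted p = 0.0979), and without the 3 young NACET libraries whose pigment epithelium genes passed 200 CPM (replicates 4 to 6) it was -0.27 (adjusted p = 0.126), so the call was lost both times.

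Across the 20 libraries, with group means removed, Mt1 correlated with the summed corneal genes at r = 0.58 (rho = 0.65), with permutation p = 0.0057 and 0.0027, or 0.14 and 0.14 after adjustment over 120 relations of the 10 genes with 12 marker lists. Without the 2 libraries farthest from the median of the corneal sum r was 0.56. With the summed pigment epithelium genes Mt1 had r = 0.51 (rho = 0.5, permutation p = 0.047 and 0.037, adjusted 0.35 and 0.3). Here r was 0.32 without the 2 farthest libraries. With the summed blood genes Mt1 had r = 0.45 (rho = 0.53, permutation p = 0.025 and 0.018, adjusted 0.27 and 0.27). The part of corneal, pigment epithelium or blood RNA in the Mt1 difference was not tested beyond these values. With labelled sex as a covariate the change was -0.36 (adjusted p = 0.0343) and in labelled males alone -0.37 (adjusted p = 0.0371).

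Mt2, which the same zinc sensor switches on, lies next to Mt1 at 8:96696518-96697467, plus strand. It measured 12.3, 15.7, 16.0 and 17.7 CPM in young controls and 12.4, 18.6, 15.7 and 14.8 CPM in old controls. Young NACET mice ranged from 10.9 to 24.9 CPM (median 15.6) and old NACET mice from 12.1 to 20.2 CPM (median 13.7). All 4 groups overlapped, and young NACET had both the lowest and the highest library. Old against young on NACET was -0.29 (SE 0.16, edgeR adjusted p = 0.313), with an interval of -0.63 to 0.05. The ratio of Mt1 to Mt2 counts was 2.07 ± 0.305 (SD, n = 20). With group means removed, Mt2 correlated with the summed corneal genes at r = 0.58 (rho = 0.57). Its permutation p was 0.033 and 0.021, or 0.3 and 0.27 after adjustment. With the summed blood genes Mt2 had r = 0.42 (rho = 0.51, permutation p = 0.016 and 0.023, adjusted 0.27 and 0.27). For Mt3 the relation with the corneal sum was r = 0.23 (rho = 0.15, permutation p = 0.45 and 0.57).

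Mt3, the metallothionein first known from brain, is the next gene along at 8:96676507-96678048, plus strand. Its young controls held 15.7, 10.7, 11.3 and 14.4 CPM and its old controls 14.6, 12.7, 13.8 and 14.9 CPM. Young NACET libraries ranged from 10.1 to 17.6 CPM (median 14.2) and old NACET libraries from 12.0 to 15.1 CPM (median 14.1). The groups overlapped in every comparison, log2 changes lay between -0.13 and 0.10, and the old groups spread less than the young ones, with SDs of 0.989 and 1.28 against 2.43 and 3.00 CPM, a contrast that was not tested.

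The promoters of the 3 metallothioneins are shown as a description of their sequence. Whether they bear on how these genes vary across libraries was not tested. The sequences are from RefSeq, build GRCm38.p6, 250 bases before to 50 bases after the start, and 7 of the 10 genes had an entry. Capitals mark the core of the metal response element, sought as TGCACNC or TGCGCNC on both strands:
Mt1, chr8:94178839-94179138, plus strand: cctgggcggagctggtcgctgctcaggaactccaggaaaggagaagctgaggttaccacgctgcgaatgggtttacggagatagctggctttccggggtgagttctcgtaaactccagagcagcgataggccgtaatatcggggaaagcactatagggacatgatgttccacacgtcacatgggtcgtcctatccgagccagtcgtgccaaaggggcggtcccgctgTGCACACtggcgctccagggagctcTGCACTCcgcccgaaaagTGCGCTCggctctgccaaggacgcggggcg
Mt2, chr8:94172368-94172667, plus strand: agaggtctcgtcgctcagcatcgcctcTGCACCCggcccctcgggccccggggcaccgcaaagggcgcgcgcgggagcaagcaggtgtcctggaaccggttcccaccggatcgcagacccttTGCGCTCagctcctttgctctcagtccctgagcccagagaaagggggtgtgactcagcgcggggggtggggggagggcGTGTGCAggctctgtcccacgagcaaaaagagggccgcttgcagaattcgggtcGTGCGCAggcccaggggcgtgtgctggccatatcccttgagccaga
Mt3, chr8:94152357-94152656, plus strand: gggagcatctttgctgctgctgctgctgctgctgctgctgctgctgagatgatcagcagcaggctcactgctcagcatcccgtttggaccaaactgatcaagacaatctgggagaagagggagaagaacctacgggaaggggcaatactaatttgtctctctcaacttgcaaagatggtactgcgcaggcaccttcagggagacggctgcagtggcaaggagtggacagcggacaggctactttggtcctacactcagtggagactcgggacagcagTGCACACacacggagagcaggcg
Mt1 had 3 matches, Mt2 had 4 and Mt3 had 1. Of 32851 promoters of this length, 25.7% had at least 1 match, 1.97% at least 3 and 0.517% at least 4. Fth1, Ftl1 and Cp had 0, and 1 of the Tfrc promoters had 2 that overlap. A match describes letters in this window, not a bound site.

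Over the 45 pairs among the 10 genes, with group means removed and 100000 permutations within groups, Mt1 and Mt2 had the closest relation, with r = 0.81 and rho = 0.80 (permutation p adjusted over 45 pairs 0.0036 and 0.0099). Without the 2 libraries farthest from the Mt1 median r was 0.75, and within groups it was 0.92, 0.95, 0.94 and 0.59. Mt1 with Mt3 had r = 0.08 and rho = 0.04 (adjusted permutation p = 0.85 and 0.99). Of all pairs, 3 had an adjusted p under 0.05 on r, the others being Mt1 with Trf (r = 0.72, rho = 0.66, adjusted p = 0.015 and 0.049, 0.66 without the 2 farthest) and Cp with Heph (r = 0.72, rho = 0.53, adjusted p = 0.031 and 0.24, 0.68 without the 2 farthest). Fth1 with Ftl1 had r = 0.45 (adjusted permutation p = 0.16) and rho = 0.65 (adjusted p = 0.049). Cp with Heph ran the other way, at r = -0.71, within the 4 old controls.

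**Figure D3:**
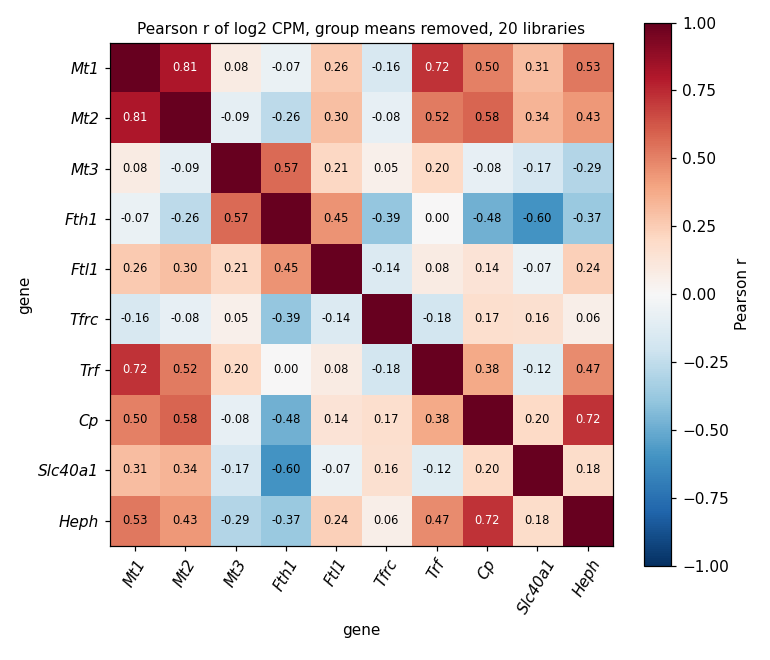
Pearson r of log2 CPM for each pair of the 10 genes over 20 libraries after removal of group means (colour and number, from -1 in blue to 1 in red). Mt1 with Mt2 is the highest at 0.81, and Fth1 with Slc40a1 is the lowest at -0.60.

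Fth1, the ferroxidase chain of ferritin, lies at 19:10057193-10059582, plus strand. Its level was 443, 388, 333 and 417 CPM in young controls and 410, 425, 380 and 426 CPM in old controls. Young NACET libraries held 324 to 486 CPM (median 386), and old NACET libraries 371 to 439 CPM (median 404). The 4 groups overlapped throughout, and the largest of the 5 log2 differences was -0.04, for NACET in old mice, with a 95% interval of -0.16 to 0.09 (edgeR adjusted p = 0.815). For aging in controls the interval was -0.19 to 0.20. Its hairpin acts on translation, which message counts do not show.

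Ftl1, the light chain that helps ferritin form its mineral core, lies at 7:52713314-52715254, minus strand. Young controls measured 55.4, 44.5, 45.1 and 51.9 CPM and old controls 55.0, 54.6, 49.9 and 54.2 CPM. Young NACET libraries ranged from 43.8 to 60.7 CPM (median 47.2). Old NACET libraries ranged from 50.7 to 55.7 CPM except replicate 1, which stood alone at 104 CPM and was also the library with lens RNA at 8180 CPM. NACET in old mice gave 0.19 (SE 0.17, edgeR adjusted p = 0.666), and without that library -0.03 (adjusted p = 0.845).

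The Fth1 to Ftl1 count ratio was 3.93 in that library, against 7.61 ± 0.993 over all (SD, n = 20). It is a ratio of counts, in which Ftl1 may be too low because of the shared sequence given above. Hmox1, the enzyme that frees iron from heme, showed the same library apart, at 41.6 CPM against 2.40 to 4.52 CPM in the other 19. Ftl1 correlated with the lens sum at r = 0.88 (rho = 0.65, permutation p = 0.0039 and 0.012, adjusted 0.14 and 0.27), and at r = 0.53 without the 2 farthest libraries, old NACET replicates 1 and 3. Ftl1 also correlated with the summed astrocyte and gliosis genes at r = 0.59 (rho = 0.64, permutation p = 0.0088 and 0.0036, adjusted 0.18 and 0.14). With the summed microglia genes it had r = 0.55 (rho = 0.52, permutation p = 0.0047 and 0.025, adjusted 0.14 and 0.27). The part of RNA from lens or from these cells in the Ftl1 values was not tested.

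Tfrc, the receptor that takes up iron-loaded transferrin, lies at 16:32609006-32632880, plus strand. The 4 young controls held 282, 221, 233 and 206 CPM and the 4 old controls 234, 216, 272 and 241 CPM. In young NACET mice it ranged from 208 to 267 CPM (median 247), and in old NACET mice from 188 to 246 CPM (median 229). All groups overlapped. Old against young on NACET was -0.15 (SE 0.07), with an unadjusted p of 0.0408 and an edgeR adjusted p of 0.215.

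The interval of the Tfrc change was -0.25 to 0.22 for aging in controls, -0.27 to 0.06 for NACET in old and -0.18 to 0.23 for NACET in young mice. Fth1 and Tfrc, whose proteins iron moves in opposite directions, had r = -0.39 and rho = -0.38 across libraries (permutation p = 0.12 and 0.13, adjusted 0.37 and 0.39), and r was -0.21 without the 2 farthest.

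Trf, the iron carrier transferrin, lies at 9:103106331-103132774, minus strand, and had the widest range of the 10 genes for its level, with the highest library at 3.71 times the lowest. It measured 5.05, 5.11 and 5.66 CPM in young control replicates 1 to 3 and 15.3 CPM in replicate 4, and 11.3, 18.7, 14.8 and 10.8 CPM in old controls. Young NACET libraries held 9.88 to 16.0 CPM (median 12.0) and old NACET libraries 8.00 to 15.8 CPM (median 11.6). The 3 low young controls lay below all 17 other libraries, and replicate 4 lay among the highest.

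Aging in controls gave a Trf change of 0.80 (SE 0.33, edgeR adjusted p = 0.257), and NACET in young mice 0.68 (SE 0.28, adjusted p = 1). The interaction was -0.97 (SE 0.36, unadjusted p = 0.014, adjusted p = 0.607). Without young control replicate 4 these became 1.35 (adjusted p = 0.0082), 1.23 (adjusted p = 0.0329) and -1.52 (adjusted p = 0.0189), so 1 library decided all 3 calls. In labelled males alone, aging was 1.41 (edgeR adjusted p = 0.0306). That fit also left out young control replicate 4, and it kept old control replicate 4, the library with Xist counts. With sex by Xist as a covariate aging was 0.97 (edgeR adjusted p = 0.27). NACET in old mice was -0.29 (SE 0.17, adjusted p = 0.473), and aging under NACET -0.17 (adjusted p = 0.547).

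The pigment epithelium list moved with Trf. The 3 young controls with low Trf had sums of 99.5, 81.2 and 77.0 CPM and replicate 4 had 374 CPM. Across the 20 libraries with group means removed, Trf correlated with that sum at r = 0.91 and rho = 0.90 (permutation p adjusted over 120 relations 0.018 and 0.0072), and at 0.82 without the 2 farthest libraries. This was the only one of the 120 relations with an adjusted p under 0.05 on r. Without the 3 controls over 200 CPM of that list, aging in controls was 1.23 (edgeR adjusted p = 0.0212), and it then compared 3 young with 2 old libraries. The part of pigment epithelium RNA in the Trf values was not tested beyond this.

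**Figure D4:**
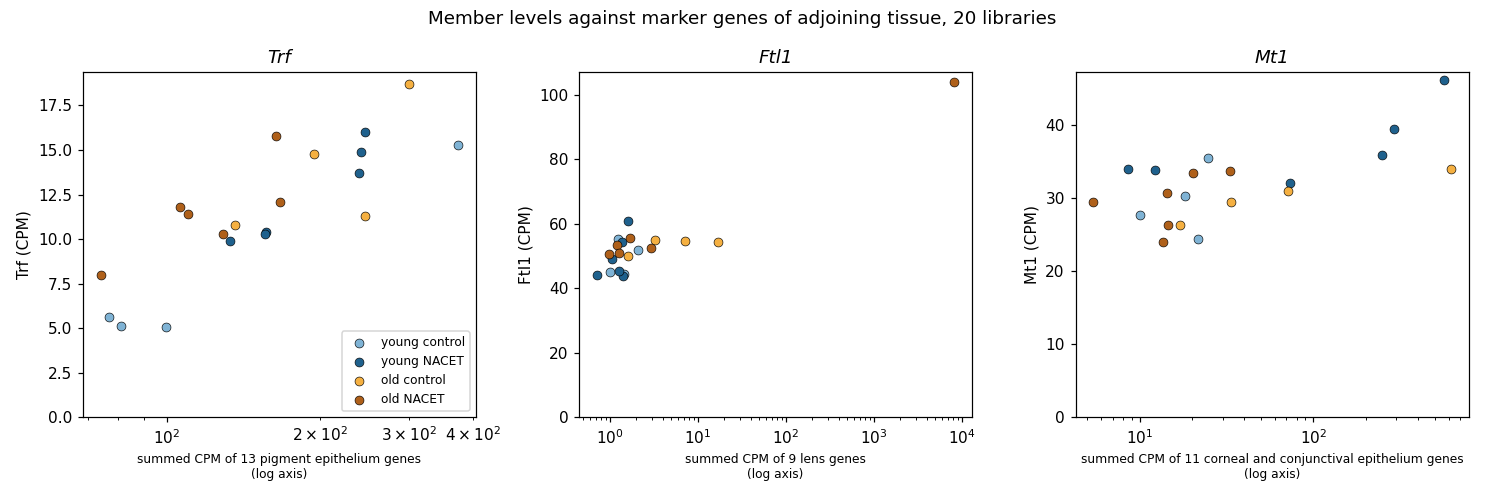
Level in CPM of Trf, Ftl1 and Mt1 against the summed CPM (log axis) of 13 pigment epithelium, 9 lens and 11 corneal and conjunctival genes, 1 point per library, coloured by group. Trf follows the pigment epithelium sum (r = 0.91 with group means removed), and old NACET replicate 1 stands apart in the middle panel at 104 CPM of Ftl1 and 8180 CPM of lens genes.

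Slc40a1, the iron exporter ferroportin, lies at 1:45964915-45982439, minus strand, and had 49 to 127 counts per library. Young controls held 3.09, 3.14, 4.66 and 2.84 CPM and old controls 4.19, 4.09, 3.78 and 4.86 CPM. Young NACET libraries ranged from 2.64 to 4.95 CPM (median 3.48), and old NACET libraries from 2.83 to 3.63 CPM (median 3.40). All 6 old NACET libraries lay below all 4 old controls, the highest at 3.63 against 3.78 CPM. The log2 difference was -0.37 (SE 0.11, 95% interval -0.60 to -0.13, unadjusted p = 0.00451), which did not pass adjustment in edgeR (adjusted p = 0.139). In this comparison 14.4% of all genes had an unadjusted p under 0.05 in edgeR. The share of all genes whose groups did not overlap is not given here.

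Since the old NACET mice were of 3 ages, the 668-day mice were also compared alone, which gave a Slc40a1 difference of -0.32 (edgeR adjusted p = 0.647). Without old control replicate 4, the library with Xist counts, it was -0.29 (adjusted p = 0.34). Aging in controls was 0.25 (SE 0.17, adjusted p = 0.509) and NACET in young mice 0.05 (SE 0.19, adjusted p = 1). The interaction of -0.42 (SE 0.22, adjusted p = 0.819) did not show a difference between the ages.

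Cp, the copper ferroxidase ceruloplasmin, lies at 3:19857054-19909145, plus strand. Young controls held 141, 168, 169 and 189 CPM and old controls 163, 151, 160 and 164 CPM. Young NACET libraries held 130 to 185 CPM (median 161), and old NACET libraries 156 to 205 CPM (median 173). Of the 6 old NACET libraries, 5 lay above every old control, though replicate 2 and the highest control both rounded to 164 CPM. The difference was 0.15 (SE 0.07, 95% interval 0 to 0.29, unadjusted p = 0.0527, edgeR adjusted p = 0.353). Without old NACET replicate 1, the library with lens RNA and the highest at 205 CPM, it was 0.10 (edgeR adjusted p = 0.451). Aging in controls was -0.11 (SE 0.07, adjusted p = 0.467). With group means removed, Cp correlated with the summed rod genes at r = -0.64 (rho = -0.55, permutation p = 0.0055 and 0.02, adjusted 0.14 and 0.27). With the summed Muller glia genes r was 0.57 (permutation p = 0.018, adjusted 0.27), and with the summed cone genes -0.55 (permutation p = 0.021, adjusted 0.27).

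Heph, the membrane-bound ferroxidase hephaestin, lies at X:93650698-93769824, plus strand. Young controls held 8.09, 9.30, 9.45 and 10.8 CPM and old controls 7.62, 8.04, 7.94 and 7.85 CPM. All 4 old controls lay below all 4 young ones, though by as little as 8.04 against 8.09 CPM. Young NACET libraries ranged from 8.51 to 10.2 CPM (median 8.79) and old NACET libraries from 6.87 to 9.92 CPM (median 8.33). Aging in controls was -0.30 (SE 0.10, 95% interval -0.52 to -0.09, unadjusted p = 0.00995, edgeR adjusted p = 0.16). Of all genes, 16.3% had an unadjusted p under 0.05 in that edgeR comparison, and the share without overlap is not given here.

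With labelled sex as a covariate the Heph change in controls was -0.20 (edgeR adjusted p = 0.467), and with sex by Xist it was -0.27 (adjusted p = 0.273). Leaving out old control replicate 4 gave -0.31 (adjusted p = 0.276). On NACET the change with age was -0.13 (SE 0.09, adjusted p = 0.448), and 4 of 6 old libraries lay below all young ones. The interaction, 0.18 (SE 0.13, adjusted p = 0.916), did not show a difference between the treatments. The Cp to Heph count ratio was 17.7 ± 0.314 (SD, n = 4) in young controls, 17.4 ± 1.80 (n = 6) in young NACET, 20.3 ± 1.14 (n = 4) in old control and 20.9 ± 1.64 (n = 6) in old NACET mice. This ratio was not tested between groups, and edgeR called neither gene with age.

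**Figure D5:**
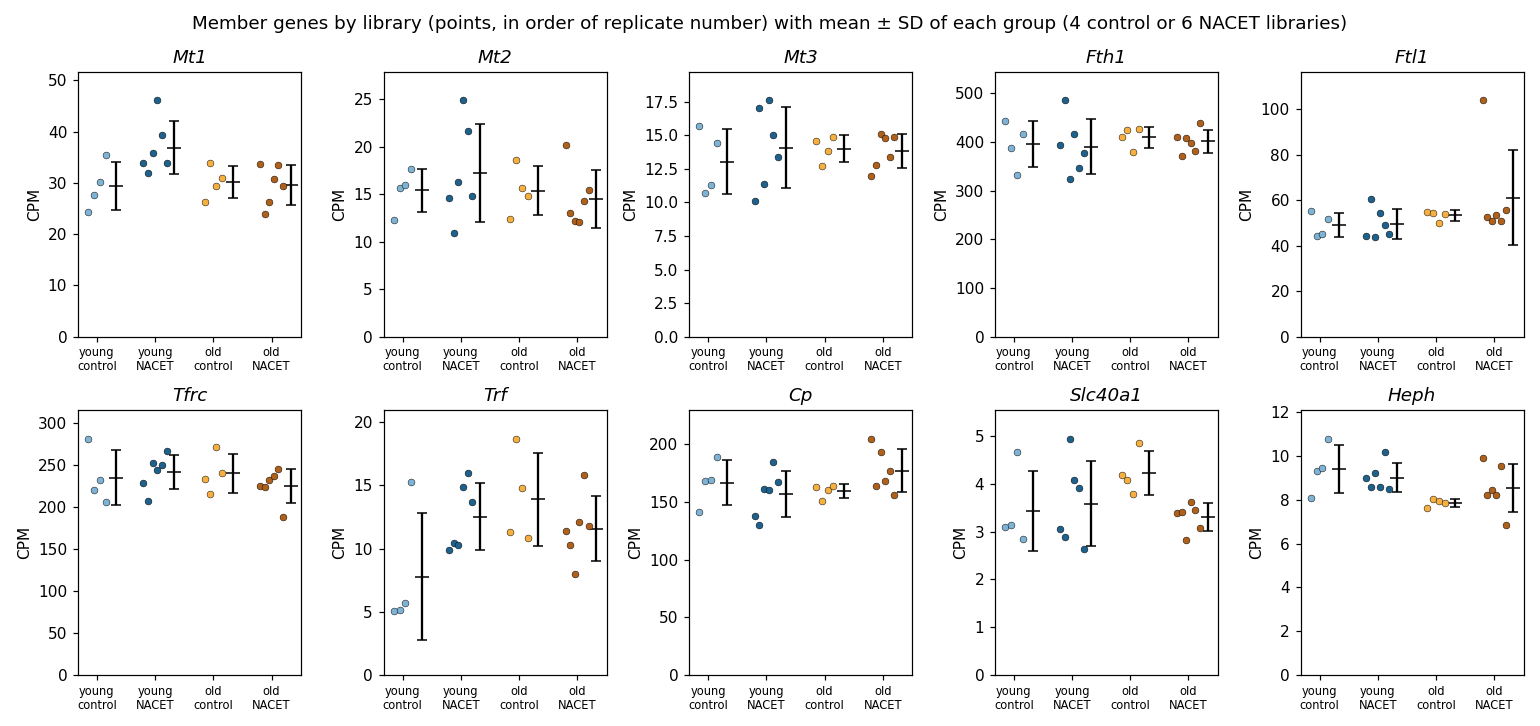
Level in CPM of each of the 10 genes in every library (points, in order of replicate number) with the mean and SD of each group (4 control or 6 NACET libraries). The mean of Mt1 is highest in young NACET mice at 36.8 CPM, 3 young controls of Trf lie near 5 CPM, and old NACET replicate 1 stands alone at 104 CPM of Ftl1.

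The genes whose pattern was most like each member are given as a description, by r of log2 CPM with group means removed over 20 libraries, among 14978 genes with a mean of at least 1 CPM. Mt1 was closest to Mt2 (0.81), Pcolce (0.77) and Tmprss11d (0.77), and Mt2 to Aox1, Syngr2 and Lama3 (0.83 each). Mt3 was closest to Ldhb (0.89), Txn1 (0.88) and Ict1 (0.88). The ferritin chains had different neighbours. Fth1 had the translation factor subunit Eif3f (0.95), Hras1 (0.94) and the ribosomal protein gene Rpl8 (0.94). Ftl1 had Hmox1, Lgals1 and Col6a3 (0.92 each), with lower rho values of 0.75, 0.7 and 0.77. Old NACET replicate 1, the library with lens RNA, stood apart in both Ftl1 and Hmox1, and its part in these r values was not tested. Tfrc was closest to Zfp119b (0.93), Ccnc (0.92) and Chm (0.92). Trf was closest to Sema3c (0.93) and to Rdh5 (0.92) and Rgr (0.91), both of which are on the pigment epithelium list. Cp was closest to Magt1 (0.86), Vamp3 (0.84) and Slc35a3 (0.83), Slc40a1 to Cand2 (0.85), Polm (0.85) and Slc5a8 (0.82), and Heph to Adhfe1 (0.87), Cd164 (0.82) and 2810417H13Rik (0.80). The 20 points share their libraries, so depth and RNA composition enter these values.

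Other genes of the same pathways were tested as fixed lists. Of 39 further iron genes, 36 were in the tables and 28 tested in each comparison, and edgeR called 0 in aging controls, 0 under NACET at either age, 0 in the interaction and 1 in aging under NACET. The 1 of 28 is 3.57%, beside 4.88% of all genes in that comparison. That gene was Hfe, a partner of the transferrin receptor that takes part in iron sensing. Hfe ran from 15.4 to 20.1 CPM in young NACET and 21.9 to 26.2 CPM in old NACET mice, with no overlap, and the change was 0.43 (SE 0.08, adjusted p = 0.00417). In controls Hfe was 17.0 to 21.6 CPM in young and 22.5 to 24.6 CPM in old mice, also without overlap, at 0.30 (SE 0.09, adjusted p = 0.139). The share of all genes without overlap is not given here for either comparison. The median log2 change of the iron list was 0.08 in aging controls and 0.03 in aging under NACET. Hmox1 under NACET in old mice was 1.51 (SE 0.71, adjusted p = 0.349), with old NACET replicate 1 at 41.6 CPM as above.

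Of 31 zinc and copper genes, 29 or 30 were tested. In aging controls 1 of 30 was called (3.33%, beside 1.42% of all genes), in aging under NACET 2 of 29 (6.90%, beside 4.88%), and in the other 3 comparisons 0. These few calls are not a result about the list, and the genes were Slc30a2 and Slc39a6. Slc30a2, a zinc transporter of vesicles, rose with age in controls, from 1.37 ± 0.556 to 3.20 ± 0.280 CPM (SD, n = 4 each) at 1.16 (SE 0.24, edgeR adjusted p = 0.0373). It rose on NACET as well, from 1.81 ± 0.325 to 3.22 ± 0.579 CPM (n = 6 each) at 0.77 (SE 0.15, edgeR adjusted p = 0.00593). Slc39a6, a zinc importer, was lower with age on NACET, at 50.1 ± 2.24 against 55.1 ± 4.59 CPM (n = 6 each) and -0.18 (SE 0.05, edgeR adjusted p = 0.0463). Mtf1, the zinc sensor, held 41.2 to 62.7 CPM over the 20 libraries with log2 changes between -0.12 and 0.06 and no call. Slc30a1, the zinc exporter that Mtf1 switches on, was -0.23 (SE 0.06, edgeR adjusted p = 0.121) under NACET in old mice.

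Glucocorticoids also induce metallothioneins, so 14 genes of that response were tested, 13 in each pairwise comparison and 14 in the interaction. The 1 called of 13 (7.69%, beside 0.543% of all genes) was Zbtb16 under NACET in old mice, at 7.33 ± 1.70 (SD, n = 6) against 3.87 ± 0.903 CPM (n = 4) and a difference of 0.93 on the log2 scale (edgeR adjusted p = 0.0428, SE 0.18). In the same comparison Mt1 was -0.04 and Mt2 -0.10 (SE 0.14, adjusted p = 0.813). The young means of Zbtb16 lay the other way, at 8.06 ± 4.36 CPM (n = 4) in controls and 5.69 ± 1.96 CPM (n = 6) on NACET. Among 668-day mice alone, with 2 NACET and 4 control libraries, edgeR called 0 of all genes, so the Zbtb16 call was lost there. Those 2 NACET libraries held 8.59 and 10.2 CPM of Zbtb16, and the old controls 3.07 to 5.04 CPM. A single call is not a result about the list.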

How the data were processed

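Each library was made from 1 retina of 1 mouse. The deposited values were raw counts of reads per gene. Per the labels and the study's methods, the authors made polyA TruSeq libraries, read single ends on a NextSeq, checked them with FastQC, aligned them to mm9 with TopHat2 2.1.0 and Bowtie, and counted exons with HTSeq 0.11.2 without strand, in intersection-nonempty mode. The annotation used for counting is not given in the sources used here. Reads set aside were 14.1% to 20.5% outside genes, 1.09% to 1.20% ambiguous and 6.65% to 7.92% with several alignments, and a row with no gene name (0.000711% to 0.00157%) was left out.

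Here each pair of groups was fitted with edgeR 4.0.16 in R 4.3.3 (TMM, default filter, quasi-likelihood test, Benjamini-Hochberg adjustment over all genes tested), and the interaction on all 20 libraries. The p-values are two-sided. CPM was the count per 1000000 gene counts, and log2 CPM for correlations used a prior count of 1. The fits were tested on simulated data. Positions and lengths came from GENCODE on mm9. The 10 genes and the lists were chosen with earlier results of these data known. Named beside them were genes called in the iron, zinc and copper, and glucocorticoid lists, Hmox1, Slc30a1 and Mtf1, and the 3 genes most like each member. Alternatives were RLE, DESeq2 1.42.0, other filters, a replicate block, sex, age, 1 fit of all 20 libraries and leaving out each library. Leaving out libraries with corneal or pigment epithelium genes over 200 CPM was chosen after seeing the data.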

Additional observations from a re-analysis of the deposited data

Results flagged for a closer look

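Of 40 groups (10 genes in 4 groups), 4 held a library far from the rest by Dixon's ratio, where chance gives about 1 in 20. Trf in young control replicate 4 was 15.3 CPM, against 5.05 to 5.66 CPM in the other 3. Ftl1 in old NACET replicate 1 was 104 CPM, against 50.7 to 55.7 CPM in the other 5. Ftl1 in old control replicate 3 was 49.9 CPM, below the 54.2 to 55.0 CPM of the other 3. Slc40a1 in young control replicate 3 was 4.66 CPM, against 2.84 to 3.14 CPM.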

How the results depend on the processing

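Over 1150 alternative values of the 10 genes, the side of the adjusted p threshold changed in 7: Mt1 in aging under NACET lost its call without libraries over 200 CPM of corneal (-0.26) or pigment epithelium genes (-0.27), and Trf gained one in 5, each named above. The sign turned in 65 values, none of them called. The number of the 10 genes called became 1 in aging controls with labelled males or without libraries rich in pigment epithelium genes, and 0 in aging under NACET without libraries rich in corneal or pigment epithelium genes. When each library was left out it ran from 0 to 1 in aging controls, in NACET in young mice and in the interaction, each time through young control replicate 4, and stayed at 0 for NACET in old mice and 1 in aging under NACET.

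Counts over all genes moved more. The 234 genes of aging controls became 721 with DESeq2, 461 in 1 fit of all libraries, 79 with labelled sex, 152 with sex by Xist, 69 in labelled males, and 118 and 74 without libraries rich in corneal and in pigment epithelium genes (113 to 414 without single libraries). The 90 genes of NACET in old mice became 375 with DESeq2, 150 with no filter, 1 in the fit of all libraries, 14 with sex by Xist, 0 in 668-day mice, 1 with age cohort, and 8 and 4 without libraries rich in corneal and in pigment epithelium genes (8 to 110 without single libraries). The 0 genes of NACET in young mice, of which 724 had an unadjusted p under 0.05 and DESeq2 also called 0, became 1 in labelled males and 2 without libraries rich in pigment epithelium genes (0 to 8 without single libraries). The 795 genes of aging under NACET became 1326 with DESeq2 and 511 without libraries rich in pigment epithelium genes (478 to 922). The 0 genes of the interaction, with 1052 at an unadjusted p under 0.05, became 86 with DESeq2 and 49 with no filter (0 to 77). The causes were not tested, and fewer libraries entered the fits that left some out.

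With replicate number as a block, calls over all genes were 422 in aging under NACET, 6 for NACET in young and 17 in old mice, and no call among the 10 genes changed. Same-numbered libraries correlated at -0.17 to 0.13, and the own number was the best match in 1 of 18, so the numbers did not pair the samples. Labelled sex could not be fitted for NACET in old mice, who were all labelled male.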
